A study of Sus scrofa with 11 samples.

Results

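IGFBP4 (ENSSSCG00000017472) and IGFBP6 (ENSSSCG00000000261) encode secreted insulin-like growth factor (IGF) binding proteins, and they are 2 of the 16319 genes in an RNA-seq table of pig heart slices. They were taken by their gene symbols and followed in all 11 libraries. They were chosen by their FPKM in these same libraries, whose course over the days was known from earlier results, so their values are given as a description without a test. Slices from wild-type Yorkshire pigs aged 3 months were sequenced at day 0 (3 libraries) and after stimulated culture for 2 days (2 libraries), 6 days (3 libraries) and 10 days (3 libraries). The labels give neither the kind of stimulation nor whether replicates came from separate animals. The p-values given for other genes thus measure the spread between these samples only, which may be technical. The study asked how far slices in a biomimetic culture keep normal gene expression.

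IGFs circulate and are stored in tissue bound to IGFBPs, which keep them from the type 1 IGF receptor and prolong their life. IGFBP4 binds both IGF1 and IGF2, and the protease PAPPA cuts it and frees the ligand, while the stanniocalcins STC1 and STC2 inhibit PAPPA. IGFBP6 binds IGF2 with far higher affinity than IGF1. In mouse cells, IGFBP4 has also been described as an inhibitor of WNT signalling at the receptors LRP6 and FZD8, a role tied to cardiomyocyte formation.

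The reads recovered from the FPKM values of the listed genes summed to 11695060 to 16773577 per library. Day 0 replicate 2 and day 2 replicate 1 stood apart, with 4536 and 4017 genes listed at 0 against 1310 to 2331 in the 9 others, and the IGFBP4 and IGFBP6 values that rest on them are also given without them. Levels are in FPKM, fragments scaled by the authors to gene length and library size, which allows levels of different genes to be set side by side. Differences are between group means of log2(FPKM + 1) with their standard errors (SE), and a gene with a limma adjusted p under 0.05 among the 12625 genes tested is called changed. The SE are those of the limma fit, which pools the spread of a gene over the 4 groups and moves it toward that of other genes. They are thus not the SE of each gene alone. The residual SD was 0.41 for IGFBP4 and 1.03 for IGFBP6.

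IGFBP4 was lowest in day 0 slices, several times higher after 2 days and 6 days of culture, and far higher after 10 days. It stood at 65.4, 59.2 and 38 FPKM in the 3 libraries of day 0 and at 164 and 338 FPKM in those of day 2. At day 6 it stood at 248, 209 and 214 FPKM, and at day 10 at 1338, 1034 and 1709 FPKM. Each library of a later day was above every library of day 0, and each library of day 10 was above every other library, while the values of day 2 lay on either side of those of day 6.

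IGFBP4 thus averaged 54.2 ± 14.4 FPKM at day 0, 251 ± 123 FPKM at day 2, 224 ± 21.0 FPKM at day 6 and 1360.3 ± 338 FPKM at day 10 (SD, n = 3, 2, 3 and 3). Ordered by level, the days ran from day 0 through day 6 and day 2 to day 10, and the neighbours day 6 and day 2 did not differ beyond their spread. The reads behind IGFBP4 numbered 1326 in day 0 replicate 3, the fewest, and 59172 in day 10 replicate 3, the most. Among the 16319 genes of a library ordered by FPKM, IGFBP4 took places 1124, 1049 and 1643 in day 0 slices. After 2 days it took places 595 and 226, after 6 days places 330, 376 and 355, and after 10 days places 110, 132 and 76. By day 10 the gene was among the 132 with the highest FPKM in each library.

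IGFBP6 followed another course, with its lowest levels at day 6 and its highest at day 10. It stood at 43.3, 147 and 31.9 FPKM in the 3 libraries of day 0 and at 91.7 and 18.1 FPKM in those of day 2. At day 6 it stood at 22.1, 20.3 and 9.13 FPKM, and at day 10 at 423, 1269 and 751 FPKM. The libraries of day 6 were all below those of day 0, those of day 10 were above every other library, and those of day 2 overlapped both day 0 and day 6.

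IGFBP6 averaged 74.2 ± 63.7 FPKM at day 0, 54.9 ± 52.1 FPKM at day 2, 17.2 ± 7.02 FPKM at day 6 and 814 ± 427 FPKM at day 10 (SD, n = 3, 2, 3 and 3). The order of the days by level was day 6, day 2, day 0 and day 10, in which neither day 6 and day 2 nor day 2 and day 0 differed beyond their spread. The highest values of day 0 and of day 2 were those of the libraries that stood apart. Without them day 0 averaged 37.6 ± 8.07 FPKM (SD, n = 2) and the remaining library of day 2 stood at 18.1 FPKM, a value between 2 of the libraries of day 6 and the third. IGFBP4 hardly depended on them at day 0, with 51.7 ± 19.4 FPKM (SD, n = 2) without replicate 2, and stood at 338 FPKM in the remaining library of day 2.

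The lowest IGFBP6 value, in day 6 replicate 3, still rested on 177 reads, with an exact 95% Poisson interval of 152 to 205 reads that covers counting error only. The most reads, 17820, were in day 10 replicate 2. Ordered by FPKM, IGFBP6 took places 1633, 581 and 1937 in day 0 slices. After 2 days it took places 940 and 4421, after 6 days places 3843, 3599 and 7129, and after 10 days places 281, 112 and 141. Its place was thus behind those of day 0 slices in each library of day 6 and ahead of every earlier library at day 10.

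**Figure D1:**
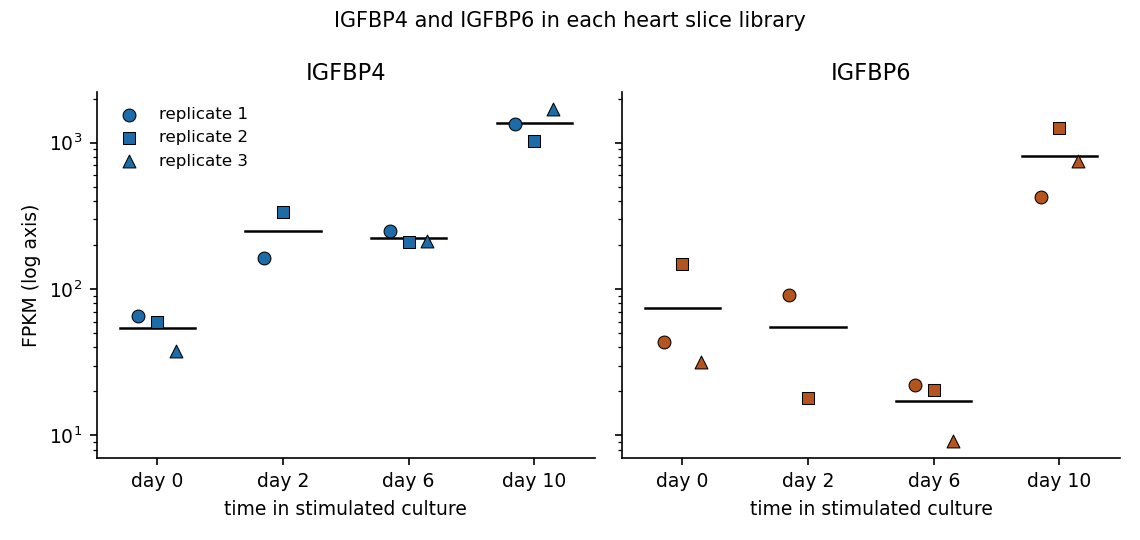
FPKM of IGFBP4 (left) and IGFBP6 (right) on a log axis in each heart slice library by day in stimulated culture, with symbols for replicate numbers and bars for the mean of a day. IGFBP4 lies above day 0 in every cultured library and reaches 1034 to 1709 FPKM at day 10, while IGFBP6 dips to 9.13 to 22.1 FPKM at day 6 and reaches 423 to 1269 FPKM at day 10.

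At day 2, the IGFBP4 mean was 4.63 times that of day 0, with a log2 difference of 2.13 ± 0.48 (SE). The libraries did not overlap, and 26.7% of all tested genes were likewise higher at day 2 with no overlap. The difference was 1.61 when day 2 replicate 2 was left out, and it was 2.66 without the other library of that day, the one that stood apart. For IGFBP6 the day 2 mean was 0.740 times that of day 0, with a log2 difference of -0.51 ± 0.79 (SE), and the libraries overlapped. Its sign rested on single libraries, since it was 0.63 when day 2 replicate 2 was left out, 0.14 when day 0 replicate 2 was left out and -1.65 when day 2 replicate 1 was left out.

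At day 6, the genes stood on opposite sides of day 0. The IGFBP4 mean was 4.13 times that of day 0, with a log2 difference of 2.06 ± 0.43 (SE), and 38.8% of all tested genes were higher at day 6 without overlap. The IGFBP6 mean was 0.231 times that of day 0, with a log2 difference of -1.81 ± 0.71 (SE), and 6.76% of all tested genes were lower at day 6 without overlap. Leaving out day 0 replicate 2 brought the IGFBP6 difference to -1.16, and the libraries still did not overlap. Between day 6 and day 2, which share no library with day 0, both genes overlapped, with log2 differences of -0.08 ± 0.48 for IGFBP4 and -1.30 ± 0.79 for IGFBP6 (SE). Leaving out day 2 replicate 1 brought these values to -0.60 for IGFBP4 and -0.16 for IGFBP6, and leaving out the other library of day 2 brought them to 0.44 and -2.44.

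At day 10, both genes were above every other library. The IGFBP4 mean was 25.1 times that of day 0, with a log2 difference of 4.63 ± 0.43 (SE). The IGFBP6 mean was 11 times that of day 0, with a log2 difference of 3.62 ± 0.71 (SE), and 25.1% of all tested genes were higher at day 10 than at day 0 without overlap. Leaving out day 0 replicate 2, which stood apart, brought the IGFBP6 difference to 4.28 and the IGFBP4 difference to 4.71. The IGFBP6 mean of day 0 was then 37.6 FPKM. Against day 6, the IGFBP6 mean of day 10 was 47.4 times as high, with a log2 difference of 5.44 ± 0.71 (SE). For IGFBP4 the day 10 mean was 6.08 times that of day 6, with a log2 difference of 2.57 ± 0.43 (SE). Between day 10 and day 6, 10.4% of all tested genes were higher without overlap. The comparisons of day 2, day 6 and day 10 share the libraries of day 0, so their values for one gene are not independent.

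The median log2 difference of all tested genes was 0.51 for day 2, 0.88 for day 6 and 0.51 for day 10, each against day 0. It was 0.36 between day 6 and day 2 and -0.43 between day 10 and day 6. After scaling by median ratios, which brought these medians to 0.00, 0.12, 0.07, 0.08 and -0.08, the log2 differences of IGFBP4 were 1.34, 0.91, 3.90, -0.43 and 2.99 in the same order. Those of IGFBP6 became -1.29, -2.92, 2.89, -1.63 and 5.81. Every sign was kept under this scaling, with IGFBP4 at day 6 closer to its day 0 level and IGFBP6 further below it. The size of these shifts depended on the libraries that stood apart. Day 0 replicate 2 had a scaling factor of 0.279, against 0.836 to 1.52 in the other libraries. With both libraries that stood apart left out, day 6 against day 0 was 1.58 for IGFBP4 and -1.68 for IGFBP6 under this scaling. Without the scaling these values were 2.14 and -1.16.

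The ratio of IGFBP4 to IGFBP6 in FPKM shows the split between the genes within each library, free of the scaling between libraries. It was 1.51, 0.402 and 1.19 at day 0 and 1.78 and 18.7 at day 2. It was 11.2, 10.3 and 23.5 at day 6, and 3.16, 0.815 and 2.27 at day 10. IGFBP4 was thus more than 10 times IGFBP6 in each library of day 6, while the ratios of day 10 overlapped those of day 0. Day 2 replicate 2 had a ratio like those of day 6, and day 2 replicate 1 had one near those of day 0.

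IGFBP5, an IGF binding protein stored in matrix, and IGFBP7, a relative of low IGF affinity, were the other members of the named family in the table. The FPKM of IGFBP4, IGFBP5, IGFBP6 and IGFBP7 summed to 279 to 519 at day 0, 473 to 600 at day 2, 328 to 483 at day 6 and 2282 to 3657 at day 10. IGFBP4 made up 12.6% to 15.2% of this sum at day 0, 34.6% to 56.4% at day 2, 43.2% to 65.3% at day 6 and 28.3% to 58.6% at day 10. IGFBP6 made up 8.34% to 37.9% at day 0, 3.01% to 19.4% at day 2, 2.78% to 5.19% at day 6 and 18.5% to 34.7% at day 10. The highest IGFBP6 shares at day 0 and day 2 were in the libraries that stood apart. Without them, IGFBP6 made up 8.34% and 11.4% at day 0 and 3.01% at day 2, each below its shares of day 10. IGFBP4 then made up 12.6% and 13.6% at day 0 and 56.4% at day 2. IGFBP7 had the largest share in each library of day 0, with 43.9% to 54.2%, and it held 19.3% to 29.7% at day 10. At day 10 IGFBP4 had the largest share in 2 of the 3 libraries, the exception being replicate 2, where IGFBP6 had the largest with 34.7%.

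**Figure D2:**
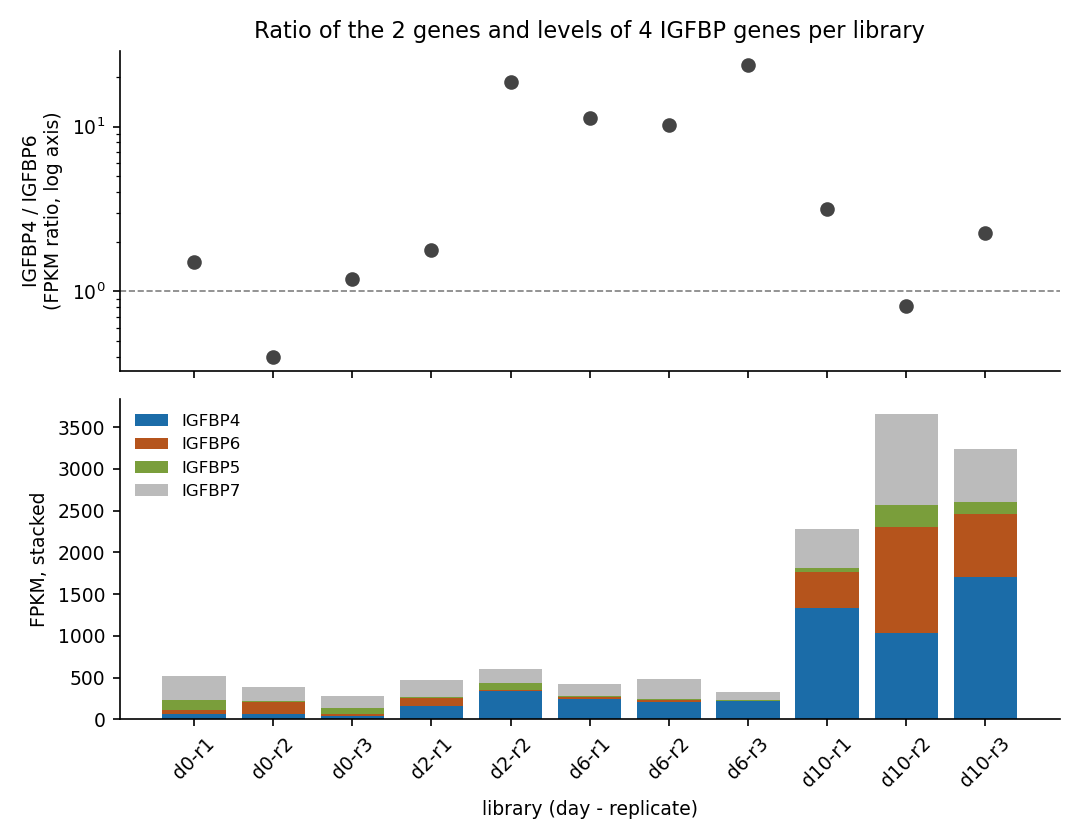
Upper panel, ratio of IGFBP4 to IGFBP6 in FPKM on a log axis for each library (d, day; r, replicate), with a dashed line at equal levels. Lower panel, stacked FPKM of 4 IGFBP genes in the same libraries. The ratio is 10.3 to 23.5 at day 6 and 0.815 to 3.16 at day 10, and the stacked sum is 2282 to 3657 FPKM at day 10 against 279 to 519 FPKM at day 0.

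The remaining genes of the IGF axis were described by lists of ligands, receptors, other binding proteins, relatives, proteases with their inhibitors, signal transduction, FOXO targets and WNT components tied to IGFBP4 or IGFBP6. Of 83 genes listed, 53 were in the table by symbol and 51 were tested. Of these 51, limma called 3 at day 2 against day 0 (2 higher, 1 lower), where 8.9% of all tested genes were called (5.76% higher and 3.14% lower). It called 5 at day 6 against day 0 (all higher), with 11.3% of all tested genes called (9.55% higher and 1.76% lower). At day 10 against day 0 it called 12 (9 higher, 3 lower), with 18.2% of all tested genes called (11.9% higher and 6.23% lower). Between day 6 and day 2 it called 0 of the 51, with 2 at an unadjusted p under 0.05, and 0 of all genes, with 511 at an unadjusted p under 0.05. Limma voom on recovered reads called 0 of the 51 as well. Between day 10 and day 6, limma on log2(FPKM + 1) called 7 (4 higher, 3 lower), with 4.9% of all tested genes called (1.91% higher and 2.99% lower). The median log2 differences of the 51 were 0.29, 0.87, 0.48, 0.53 and -0.54 in this order, beside 0.51, 0.88, 0.51, 0.36 and -0.43 for all tested genes. The split between higher and lower depended on the scaling. After median ratio scaling it was 1 higher and 5 lower, 2 and 5, and 6 and 5 for the days against day 0, and 7 and 2 for day 10 against day 6. After quantile scaling these splits were 3 and 5, 6 and 5, 8 and 4, and 8 and 6.

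Without both libraries that stood apart, limma called 9, 10, 18, 1 and 23 of the 51, or 17.6%, 19.6%, 35.3%, 1.96% and 45.1%, where it called 10.9%, 15.7%, 27%, 0.0317% and 20% of all tested genes. Leaving out day 0 replicate 2 alone brought the first, second and last counts to 7, 8 and 17, with 1763, 1249 and 1544 of all tested genes called. Without day 6 replicate 1, the first, second and last counts were 1, 1 and 4, with 787, 119 and 292 of all tested genes called. They were the same without day 6 replicate 3, with 810, 352 and 281 called. The first count was also 1 without day 2 replicate 2 or day 10 replicate 3. The second was 3 without day 6 replicate 2 or day 10 replicate 2, and the last was 4 without day 10 replicate 2.

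IGF1, the ligand of both binding proteins found in the table, averaged 8.20 ± 4.42 FPKM at day 0, 3.13 ± 0.513 FPKM at day 2, 3.95 ± 1.62 FPKM at day 6 and 17.7 ± 10.8 FPKM at day 10 (SD). Without the libraries that stood apart it averaged 10.5 FPKM at day 0 and stood at 3.49 FPKM at day 2. It was not called, with a log2 difference of 1.00 ± 0.58 for day 10 against day 0 (SE, limma adjusted p = 0.253) and of 1.83 ± 0.58 for day 10 against day 6 (SE, limma adjusted p = 0.0961). The second was called in 7 of 25 alternatives, among them median ratio scaling (2.11), quantile scaling (2.27) and leaving out day 0 replicate 2 (1.83). At day 10 the level of IGFBP4 was far above that of IGF1, the lowest IGFBP4 value being 1034 FPKM and the highest IGF1 value 29.96 FPKM. IGF2R, which takes up IGF2 for breakdown, averaged 13.0, 29.5, 51.1 and 30.8 FPKM over days 0, 2, 6 and 10, and INSR, the insulin receptor, averaged 4.82, 2.34, 5.48 and 1.2 FPKM. Without the library that stood apart, day 2 was at 56.5 FPKM for IGF2R and 4.55 FPKM for INSR. Neither receptor was called in any of the 5 comparisons. IGF2, IGF1R, IGFBP2 and IGFBP3 were not analysed here.

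IGFBP5 had the same order of days by mean level as IGFBP6, with 68.2 ± 59.0 FPKM at day 0, 50.6 ± 47.3 FPKM at day 2, 15.1 ± 6.29 FPKM at day 6 and 157 ± 106 FPKM at day 10 (SD). In the libraries that stood apart, IGFBP5 had its lowest value of the day, at 11.3 and 17.1 FPKM, where IGFBP6 had its highest. The day 10 and day 0 libraries of IGFBP5 overlapped, with a log2 difference of 1.48 ± 0.86 (SE, limma adjusted p = 0.259). Its log2 difference between day 10 and day 6 was 3.12 ± 0.86 (SE, limma adjusted p = 0.0581), and it was called in none of the comparisons with these settings. The call was made in 11 of 25 alternatives, among them median ratio scaling (3.49), quantile scaling (3.45), a pseudocount of 5 (2.81) and leaving out day 0 replicate 1, day 0 replicate 2 or either library of day 2 (3.12 each). At day 6 against day 0 IGFBP5 was called lower in 6 of 25, among them median ratio scaling (-2.71), quantile scaling (-2.63) and leaving out day 0 replicate 2 (-2.60). Without the libraries that stood apart it averaged 96.6 FPKM at day 0 and stood at 84.1 FPKM at day 2. IGFBP7 stood at 281, 171 and 145 FPKM at day 0, 200.4 and 160 FPKM at day 2, 139, 233 and 96.4 FPKM at day 6 and 466, 1086 and 626 FPKM at day 10. It was called higher at day 10 than at day 0, by a log2 difference of 1.83 ± 0.48 (SE, limma adjusted p = 0.02), and than at day 6, by 2.21 ± 0.48 (SE, limma adjusted p = 0.0185). The first call was lost after median ratio scaling (1.10) and also when day 0 replicate 3 (1.63) or day 10 replicate 2 (1.49) was left out. The second was lost without day 6 replicate 1 (2.18), day 6 replicate 3 (1.91) or day 10 replicate 2 (1.88). IGFALS, which holds IGF and IGFBP3 or IGFBP5 in a serum complex, was called lower at day 10, with 0.303 ± 0.261 FPKM against 3.67 ± 2.31 FPKM in day 0 slices (SD, n = 3 each). The log2 difference was -1.71 ± 0.49 (SE, limma adjusted p = 0.0296). IGFALS passed the filter only through day 0, with a mean of 0.752 FPKM over the other days. Its call was kept with no filter and lost after quantile scaling (-1.87), with only the compared groups (-1.71), and without day 0 replicate 1 (-1.53), day 0 replicate 2 (-1.39) or any one library of day 10 (-1.86 to -1.57).

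PAPPA passed the filter of a mean of 1 FPKM over all libraries only through day 10, with a mean of 0.356 FPKM over the other days, so the filter itself favoured a difference. This protease, which cuts IGFBP4, stood at 1.13, 7.19 and 7.001 FPKM at day 10, against 0.147, 0 and 0.0747 FPKM at day 0. Its log2 difference was 2.28 ± 0.50 (SE, limma adjusted p = 0.00758), a call kept with no filter. Day 10 against day 6 was not called, at 1.79 ± 0.50 (SE, limma adjusted p = 0.0595), but it was called in 8 of 24 alternatives, among them median ratio scaling (1.87), quantile scaling (2.15), leaving out day 0 replicate 2 (1.79) and leaving out day 10 replicate 1 (2.44). STC1, the PAPPA inhibitor, was highest at day 2 and day 6. It stood at 1.18, 0 and 2.23 FPKM at day 0, 39.9 and 112 FPKM at day 2, 71.1, 103 and 61.7 FPKM at day 6 and 4.91, 11.1 and 9.08 FPKM at day 10.

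STC1 was called higher at day 2, by 5.15 ± 0.64 (SE, limma adjusted p = 0.00114), and at day 6, by 5.34 ± 0.57 (SE, limma adjusted p = 7.43e-04), both against day 0. The first of these calls was lost with only the compared groups (5.15). At day 10 it was called lower than at day 6, by -3.12 ± 0.57 (SE, limma adjusted p = 0.00724), a call lost with a pseudocount of 0.1 (-3.26) and with voom on recovered reads (-3.29). It was also called higher at day 10 than at day 0, by 2.23 ± 0.57 (SE, limma adjusted p = 0.0174), a call lost without day 10 replicate 2 (2.01) or replicate 3 (2.14), with a pseudocount of 5 (1.11), with voom (4.48) and with only the compared groups (2.23). STC2 was not called, at 1.57 ± 0.60 for day 6 against day 0 (SE, limma adjusted p = 0.0961), and was called in 1 of 25 alternatives, array weights. By day, PAPPA, which passed the filter only through day 10, was thus highest at day 10, as IGFBP4 was. STC1 was highest at day 2 and day 6, where IGFBP4 was at its middle level. Within day 10 the order of the libraries differed between PAPPA and IGFBP4. In replicates 1, 2 and 3, PAPPA stood at 1.13, 7.19 and 7.001 FPKM and IGFBP4 at 1338, 1034 and 1709 FPKM.

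HTRA1, a serine protease that can also cut IGFBPs, stood at 86.2, 60.8 and 43.9 FPKM at day 0, 76.2 and 129 FPKM at day 2, 99.97, 100.03 and 69.3 FPKM at day 6 and 301, 576 and 859 FPKM at day 10. It was called higher at day 10 than at day 0, by 3.09 ± 0.48 (SE, limma adjusted p = 7.75e-04), and than at day 6, by 2.57 ± 0.48 (SE, limma adjusted p = 0.00791), and both calls were kept under every alternative run. ADAM12, a metalloprotease reported to cut IGFBP3 and IGFBP5, was called higher at day 10 than at day 0, by 3.92 ± 0.90 (SE, limma adjusted p = 0.00971). It stood at 4.58, 25.5 and 48.9 FPKM at day 10, but also at 15.7 FPKM in day 2 replicate 2 and 6.28 FPKM in day 6 replicate 3. Its libraries of day 10 and day 6 overlapped, and that comparison was not called (2.09 ± 0.90, SE, limma adjusted p = 0.218). Of the 6 tested proteases and inhibitors, 4 were called higher at day 10 against day 0, and of the 6 tested relatives with an IGFBP domain 3 were, beside 11.9% of all tested genes. These counts include PAPPA and CCN4, which passed the filter only through day 10, and are given as a description. The 3 relatives were IGFBP7, CCN4 (3.12 ± 0.44, SE, limma adjusted p = 3.87e-04), a matricellular protein, and ESM1 (4.76 ± 0.89, SE, limma adjusted p = 0.00284), a proteoglycan of endothelial cells. ESM1 stood at 39.1, 44.9 and 46.5 FPKM at day 10, but a high level was not particular to that day. It stood at 47.3 FPKM in day 2 replicate 2 and at 1.00 FPKM in day 2 replicate 1, which stood apart. CCN4 averaged 0.377 FPKM over the other days, and its calls were kept with no filter. At day 10 against day 6, CCN4 (2.84, limma adjusted p = 0.00233) and ESM1 (3.78, limma adjusted p = 0.0285) were called higher too, and the ESM1 call was lost with a pseudocount of 0.1 (4.24), with voom (4.28) and without any one library of day 6 or day 10 (3.59 to 3.95).

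**Figure D3:**
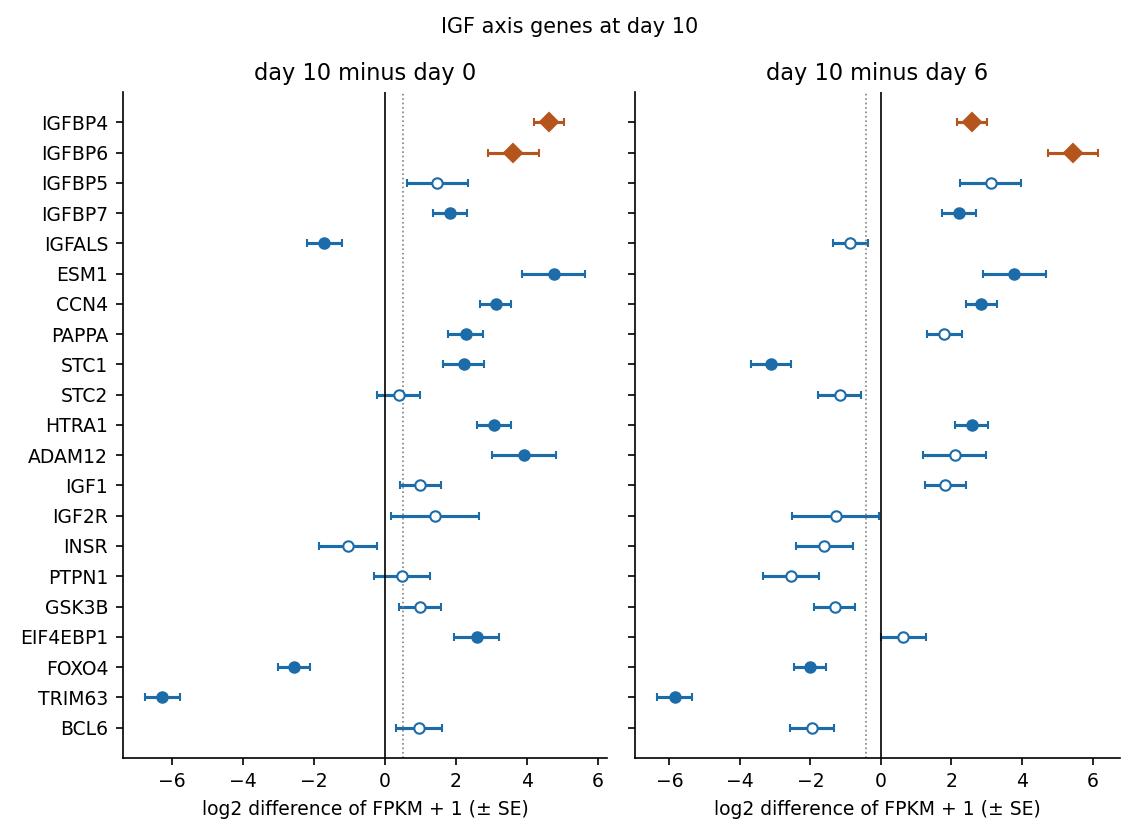
Log2 differences of FPKM + 1 with their SE for IGFBP4 and IGFBP6 (diamonds, not tested) and other IGF axis genes (circles, filled where the limma adjusted p is under 0.05) for day 10 minus day 0 (left) and day 10 minus day 6 (right). The dotted lines mark the median of all tested genes, at 0.51 and -0.43. IGFBP6 has the largest value against day 6, at 5.44, and TRIM63 the lowest in both panels.

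Downstream, 3 of 25 tested signalling genes were called at day 10 against day 0, or 12% beside 18.2% of all tested genes. EIF4EBP1, a repressor of translation, was higher, by 2.59 ± 0.64 (SE, limma adjusted p = 0.0146), a call lost after median ratio scaling (1.86) and without day 0 replicate 3 (2.14) or day 10 replicate 1 (2.33). FOXO4, a transcription factor that IGF signalling keeps out of the nucleus, was lower, by -2.56 ± 0.46 (SE, limma adjusted p = 0.00205). SHC1, an adaptor of the receptors that was named after its values were seen, was higher, by 1.76 ± 0.54 (SE, limma adjusted p = 0.0392). The SHC1 call was lost after median ratio scaling (1.09) and when any one library of day 6 (1.76) or day 10 (1.45 to 2.02), day 0 replicate 2 (1.36) or day 0 replicate 3 (1.77) was left out. It was also lost with the replicate block (1.76), an equal FPKM total (1.79), quantile scaling (1.19), voom (1.88) and only the compared groups (1.76). Of 7 tested FOXO targets, TRIM63, a muscle ubiquitin ligase, was the one called at day 10 against day 0, or 14.3% beside 18.2% of all tested genes. It averaged 199.7 ± 71.2 FPKM at day 0, 48.4 ± 12.9 FPKM at day 2, 144 ± 19.7 FPKM at day 6 and 1.76 ± 1.34 FPKM at day 10 (SD). It was called lower at day 10 than at day 0 (-6.26, limma adjusted p = 6.60e-06) and than at day 6 (-5.85, limma adjusted p = 4.59e-05). TRIM63 is a gene of muscle cells, whose summed markers were 14.4 to 61.1 FPKM at day 10, and their part in this result was not tested. Day 10 against day 6 had FOXO4 called lower as well (-2.01, limma adjusted p = 0.0234), a call lost after median ratio scaling (-1.61), without any one library of day 6 (-2.19 to -1.89) and without day 10 replicate 1 (-1.74) or replicate 2 (-2.07).

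At day 6 against day 0, where IGFBP4 and IGFBP6 stood on opposite sides, the called genes besides STC1 were PTPN1 (3.04, limma adjusted p = 0.0325), a phosphatase of the insulin and IGF receptors, the kinase GSK3B (2.30, limma adjusted p = 0.0306) and BCL6 (2.92, limma adjusted p = 0.0171), a repressor and FOXO target, all higher. SHC1 (2.14, limma adjusted p = 0.0290) was higher too, a call lost after median ratio scaling (1.07) and when any one library of day 6 (2.12 to 2.15) or day 0 replicate 3 (2.15) was left out, and with only the compared groups (2.14). The calls of PTPN1 and GSK3B were lost after median ratio scaling (2.01 and 1.25) and when any one library of day 6 (2.85 to 3.22 and 2.18 to 2.39) or day 10 replicate 2 (3.04 and 2.30) was left out. That of BCL6 was lost without day 6 replicate 1 (3.01) or replicate 3 (2.66). At day 2 against day 0, EIF4EBP1 was called higher (2.61, limma adjusted p = 0.0398) and TRIM63 lower (-1.98, limma adjusted p = 0.0438). Most single libraries left out, of any day, ended one or both of these calls, with values of 1.87 to 3.35 for EIF4EBP1 and of -2.24 to -1.71 for TRIM63. The replicate block ended both as well (2.42 and -1.83). Of the WNT receptor LRP6 and PHB2, a protein reported to bind IGFBP6 in human cells, neither was called in any comparison.

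Markers of heart cell types also differed between the days. The summed FPKM of 7 cardiomyocyte markers, none of them at 0 in a library, was 56086 to 80981 at day 0, 1803 to 9712 at day 2, 9124 to 20636 at day 6 and 14.4 to 61.1 at day 10. All 7 were called lower at day 10 than at day 0. The sum of 7 activated fibroblast markers was 225 to 344 at day 0, 171 to 448 at day 2, 78.7 to 166 at day 6 and 2516 to 4645 at day 10, and 5 of 7 were called higher at day 10 than at day 0. The sum of 7 general fibroblast markers was 373 to 1990 at day 0, 427 to 428 at day 2, 314 to 629 at day 6 and 1747 to 8420 at day 10. The lowest value of day 0 was in replicate 2, which stood apart. The others of that day, at 1870 and 1990, were above day 10 replicate 1, at 1747. Of these 7, 1 was called higher at day 10 than at day 0, or 14.3%. In that comparison, 11.9% of all tested genes were called higher and 6.23% lower. IGFBP6 and the summed activated fibroblast markers thus both had their lowest values at day 6 and their highest at day 10. TAGLN had the highest mean of these markers on each day, and single markers took other courses, with TNC at 17.9 FPKM at day 6 against 0.839 FPKM at day 0 and FN1 at 27.8 FPKM against 24.4 FPKM. At day 6 against day 0, 1 of the 7 activated fibroblast markers was called higher and 1 lower, beside 9.55% and 1.76% of all tested genes. IGFBP4 was several times higher at day 6 than at day 0. The activated fibroblast sums of day 6 were all below those of day 0, and the general fibroblast sums of these days overlapped. The part of either in the IGFBP4 level was not tested.

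Of 3 adventitial fibroblast markers, whose sum was 158 to 401 FPKM at day 0, 46.2 to 70.9 FPKM at day 2, 15 to 42 FPKM at day 6 and 139 to 549 FPKM at day 10, PI16 and CLEC3B were called lower and SFRP2 higher at day 10 than at day 0. PI16 was at 0 in at least 1 library of day 10. The sum of 6 endothelial markers was 51.4 to 563 FPKM at day 0, 501 to 2130 FPKM at day 2, 862 to 2079.9 FPKM at day 6 and 251 to 952 FPKM at day 10. Its lowest values at day 0 and day 2 were those of the libraries that stood apart. Without them it was 234 and 563 FPKM at day 0 and 2130 FPKM at day 2. Limma called 0 of the 6 at day 10 against day 0, where 18.2% of all tested genes were called. In bulk RNA, more cells of a type and more RNA per cell cannot be told apart, and the part of these markers in the IGFBP4 and IGFBP6 levels was not tested.

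**Figure D4:**
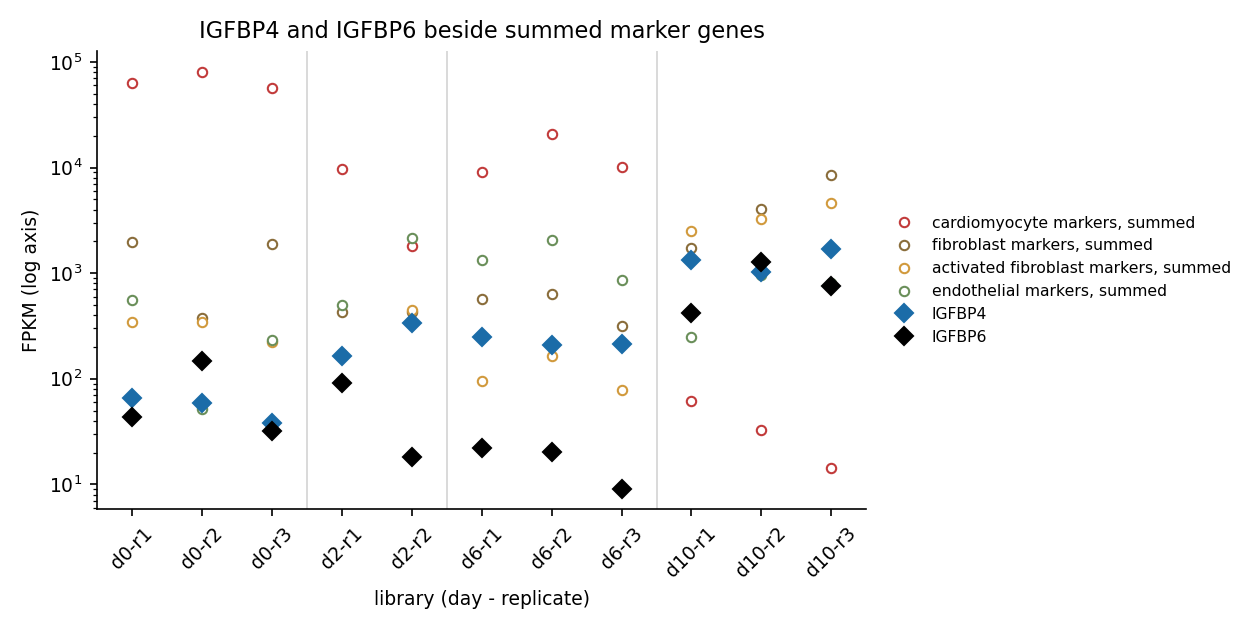
FPKM of IGFBP4 and IGFBP6 (diamonds) and summed FPKM of cardiomyocyte, fibroblast, activated fibroblast and endothelial markers (open circles) on a log axis in each library, with grey lines between days. At day 10 the cardiomyocyte sum is 14.4 to 61.1 FPKM, and both IGFBP genes, between 423 and 1709 FPKM, lie above it in each library.

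The genes whose course was most like each member differed between IGFBP4 and IGFBP6. Likeness was taken as the Pearson r of log2(FPKM + 1) over the 11 libraries, ranked among 8156 other tested genes with a symbol, and it is a description, since the points share libraries, days and depth. The genes closest to IGFBP4 were PHGDH (r = 0.975), EBPL (r = 0.969), ME1 (r = 0.966), PSAT1 (r = 0.965) and PCK2 (r = 0.964). PHGDH and PSAT1 encode enzymes of serine synthesis, ME1 the cytosolic malic enzyme and PCK2 a mitochondrial enzyme that forms phosphoenolpyruvate. PHGDH averaged 2.95, 23.8, 13.0 and 117 FPKM over days 0, 2, 6 and 10, and PSAT1 averaged 1.85, 19.02, 25.6 and 133 FPKM, so both were above day 0 on each cultured day and highest at day 10, as IGFBP4 was.

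Among the genes closest to IGFBP6 were COPZ2 (r = 0.957), MGMT (r = 0.954), SORD (r = 0.926) and INHBE (r = 0.918). COPZ2 encodes a coatomer subunit, MGMT a DNA repair enzyme, SORD sorbitol dehydrogenase and INHBE an inhibin subunit. INHBE averaged 0.369, 0, 0.0188 and 8.20 FPKM over days 0, 2, 6 and 10, and it passed the filter only through day 10. The filter itself thus favoured its likeness to IGFBP6, which was also highest at day 10. COPZ2 averaged 50.4, 27.4, 17.9 and 154 FPKM over days 0, 2, 6 and 10, and MGMT averaged 122, 80.9, 54.6 and 348 FPKM, each lowest at day 6 and highest at day 10, as IGFBP6 was. Over the 9 libraries left without those that stood apart, the order changed. PHGDH was then at place 5 in the order of IGFBP4 (r = 0.983), EBPL at 25, ME1 at 7, PSAT1 at 10 and PCK2 at 42. In the order of IGFBP6, COPZ2 was at place 1 (r = 0.987), MGMT at 2, SORD at 13 and INHBE at 9. IGFBP6 itself was at place 1469 in the order of IGFBP4, with r = 0.611 over 11 libraries and 0.732 over 9, and IGFBP4 was at place 409 in the order of IGFBP6.

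No gene of the RefSeq pig annotation (Sscrofa11.1) overlapped IGFBP4 or IGFBP6. Next to IGFBP4, TOP2A, a topoisomerase of dividing cells, averaged 1.5, 6.45, 1.73 and 8.82 FPKM over days 0, 2, 6 and 10. Next to IGFBP6, SPRYD3 averaged 16.2, 32.8, 51.3 and 34.8 FPKM, and SOAT2, a cholesterol esterifying enzyme, averaged 0.0551, 0, 0.0832 and 1.37 FPKM. TNS4, on the other side of IGFBP4, was not analysed here. TOP2A, SPRYD3 and SOAT2 were thus below both genes at day 10, and SPRYD3 had its highest mean on day 6, where IGFBP6 had its lowest.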

How the data were processed

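Total RNA had been isolated from flash-frozen slices and made into TruSeq libraries, per the labels' protocols. The authors deposited a table with one FPKM value per gene and library. Bowtie 0.12.2 and mm8, which is a mouse build, are named in the submitters' processing notes, with no word on their role. The identifiers belong to pig genes. The counting tool and the annotation were not given in the sources used here, and no coordinates are printed for this reason. Reads shared between related genes could not be traced.

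FPKM values are whole multiples of the value of 1 read. All values above 0 (100% for 16073 genes) came out as whole reads within 0.01 reads, with gene models of 2128 bases for IGFBP4 and 1199 bases for IGFBP6, and intervals for reads cover counting error only. The 12625 genes whose FPKM averaged 1 or more across the 11 libraries were taken as log2(FPKM + 1), which understates changes of low genes. One limma 3.58.1 model (R 4.3.3) with 4 groups, 7 residual degrees of freedom and an intensity trend gave 5 comparisons, two-sided, with Benjamini-Hochberg adjustment within each and a threshold of 0.05. The members, lists, markers and tests were chosen with earlier results of these data known, and member values carry no test. Named besides the members were 12 core IGF axis genes where present, up to 4 called genes of each list with the largest change, and the 5 genes most like each member, of which 1 is not reported here. No replicate block was used. Promoter motifs were not analysed here. The steps were tested on simulated data.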

Additional observations from a re-analysis of the deposited data

How the results depend on the processing

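Alternatives were another pseudocount (0.1 or 5), no filter or a mean of at least 5 FPKM, 3 other scalings (equal FPKM total, median ratio and quantile), array weights, no trend, voom on recovered reads, only the compared groups, a replicate block, each library left out, and both libraries that stood apart left out. That last one joined to median ratio scaling was chosen after seeing the data. Comparisons are listed as day 2, day 6 and day 10 against day 0, then day 6 against day 2 and day 10 against day 6.

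IGFBP4 and IGFBP6 kept their direction at day 6 and day 10 against day 0 and at day 10 against day 6 in every alternative run. Median ratio scaling moved IGFBP4 to 1.34, 0.91, 3.90 and, for day 10 against day 6, 2.99, and IGFBP6 at day 6 against day 0 to -2.92. Quantile scaling moved IGFBP4 to 3.99 at day 10 against day 0 and to 2.06 against day 6. With both libraries left out, IGFBP4 was 2.74 at day 2 against day 0 and -0.60 at day 6 against day 2, and IGFBP6 was -0.16 in the second of these. With median ratio scaling added, IGFBP4 was 1.58 at day 6 against day 0, -0.55 at day 6 against day 2 and 2.99 at day 10 against day 6, and IGFBP6 was -1.57 at day 2 against day 0 and -0.11 at day 6 against day 2. Leaving out each library gave ranges of 1.61 to 2.66, 1.82 to 2.21, 4.40 to 4.81, -0.60 to 0.44 and 2.39 to 2.76 for IGFBP4. For IGFBP6 they were -1.65 to 0.63, -2.25 to -1.16, 3.19 to 4.28, -2.44 to -0.16 and 5.05 to 5.84.

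The 3 IGF axis calls at day 2 against day 0 became 1 with no filter, 6 with median ratio, 8 with quantile, 7 with array weights, 1 with voom, 0 with only the compared groups, 9 with both libraries left out and 6 with median ratio added. The 5 at day 6 became 11 (quantile), 28 (array weights), 3 (compared groups), 10 (both left out) and 9 (median ratio added), and the 12 at day 10 became 24 with array weights. For day 6 against day 2, leaving out both gave 1. The 7 at day 10 against day 6 became 14 (quantile), 30 (array weights), 18 (compared groups), 23 (both left out) and 18 (median ratio added). With single libraries left out the counts ran from 1 to 7, 1 to 8, 8 to 15, 0 to 0 and 4 to 17. The highest, apart from the fourth, were without day 0 replicate 2, and the lowest at day 6 against day 0 were without day 6 replicate 1 or replicate 3.

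All genes called (1124, 1428, 2295, 0 and 619) became 720 (equal total), 1725 (quantile) and 17 (compared groups) at day 2 against day 0. At day 6 they became 942 (pseudocount 0.1), 864 (median ratio), 6632 (array weights), 778 (voom) and 536 (compared groups). At day 10 they became 5469 (array weights), 1310 (compared groups) and 3609 (median ratio, both left out). At day 6 against day 2, leaving out both gave 4, and at day 10 against day 6 they became 1130 (quantile), 5958 (array weights), 1903 (compared groups), 2524 (both left out) and 2107 (median ratio added). Single libraries left out gave 360 to 1763, 119 to 1515, 1460 to 2700, 0 to 2 and 273 to 1544. The lowest were without day 2 replicate 1, day 6 replicate 1, day 10 replicate 2 and, last, day 10 replicate 2, and day 0 replicate 2 gave the highest at day 2 and day 10 against day 0 and at day 10 against day 6. Median ratio scaling turned the split at day 2 against day 0 to 337 higher and 815 lower, from 727 and 397, and that at day 6 to 269 and 595, from 1206 and 222. At day 10 against day 0 it gave 911 higher and 1244 lower, from 1508 and 787, and against day 6 it gave 302 and 284, from 241 and 378. The cause of these shifts was not tested.

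The replicate block gave 1, 5, 11, 0 and 7 IGF axis calls and 871, 1096, 2107, 0 and 504 calls over all genes. Same-numbered libraries form 15 pairs, of which 9 had residuals correlated above 0.1 (range of all 15 -0.552 to 0.469). Of 11 libraries, 5 correlated best with their own number. With residuals from groups of 2 or 3 libraries, these values cannot decide whether the numbers mark pairs. The labels do not say that a number marks an animal, so the numbers were not taken as pairs. Of 27 calls of named IGF axis genes, 11 kept call and direction in every alternative, and of 671 values 107 lost the call and 0 reversed. Only the compared groups ended 10 of the 27, as did leaving out day 6 replicate 1, day 6 replicate 3 or day 10 replicate 2, while median ratio scaling ended 8 and voom 6. With 2 libraries at day 2, comparisons with that day have the fewest samples.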
